A study of Caenorhabditis elegans with 14 samples.

Results

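EIF-3.G without its RNA recognition motif (RRM) was compared with the intact protein through the RNA that each form kept after ultraviolet crosslinking in Caenorhabditis elegans. All peaks of 4 deposited lists were used, those of the 2 CLIP libraries of 3xFLAG::EIF-3.G(ΔRRM) and of the 2 CLIP libraries of 3xFLAG::EIF-3.G(+). These lists held 92450 of the 162556 peaks of the 7 CLIP libraries in the series, and peaks were matched on chromosome and strand by an overlap of at least 1 nt. The ΔRRM form came from the transgene juSi368 and the (+) form from juSi364, both under the promoter Punc-17beta. Both were in worms carrying acr-2(n2420), each form is represented by 1 strain, and no alteration of the gene eif-3.G itself is named for either. Per the labels, this promoter puts the tagged protein in cholinergic motor neurons, while the input libraries come from lysates of whole worms of mixed stages, crosslinked at 3 kJ/m2. Peaks of 2 other strains are given beside the comparison as values. These were 2 libraries of EIF-3.G(C130Y), from worms with eif-3.G(ju807) and acr-2(n2420), and 1 library of wild type N2 worms without a transgene, which lack acr-2(n2420) too. The source label of that last library names an IgG control, and its antibody label names anti-FLAG.

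EIF-3.G is a subunit of eIF3, the multi-subunit factor that holds the small ribosomal subunit ready for messenger RNA and scans with it towards the start codon. The G subunit carries a zinc finger and, near its C-terminal end, an RRM, a fold that many proteins use to hold single-stranded RNA. In single-end enhanced CLIP the RNA crosslinked to a precipitated protein is read next to an input library of that lysate. Each deposited peak has a log2 value, CLIP reads over input reads with each divided by its library total, and a −log10 p-value. A peak is called enriched here at a log2 of at least 1 and a −log10 p of at least 3. The comparison asks which crosslinked regions depend on the RRM. The files name no gene for a peak, and no annotation of build ce10 was used here, so regions are given by position, and neither gene groups nor the markers of the labelled cell type were counted.

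The libraries differed in depth, and depth moved with the form of the protein. Read totals recovered from the deposited values were 0.544 and 0.893 M reads for the ΔRRM CLIP libraries, against 1.70 and 1.57 M reads for (+). The input totals were 1.55 and 1.31 M reads for ΔRRM, against 1.14 and 1.29 M reads for (+). A peak of 3 CLIP reads on 1 input read therefore had a log2 of 3.10 and 2.14 in the ΔRRM libraries, against 1.00 and 1.299 in the (+) libraries. Such peaks made up 14.9% and 14.1% of the ΔRRM lists, against 12.1% and 11.1% of the (+) lists. The ΔRRM lists held 11021 and 21441 peaks, against 34441 and 25547 for (+). Enriched peaks were 16.0% and 5.34% of the ΔRRM lists, against 1.86% and 2.55% of the (+) lists. Every ΔRRM share lay above both (+) shares, but 2 libraries against 2 allow only 6 arrangements, and the exact two-sided permutation test gave p = 0.333, the smallest it can give. Fewer cells with the tagged protein and less crosslinked RNA per cell cannot be told apart in such bulk libraries. The labels do not say that replicates came from separate cultures, so the spread between them may be technical.

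Few listed peaks were common to all libraries. Of ΔRRM replicate 1, 53.8% of the listed peaks met one of ΔRRM replicate 2, and 58.2% and 51.5% met one of (+) replicates 1 and 2. Of ΔRRM replicate 2, 28.4% met a peak of ΔRRM replicate 1, and 47.9% and 40.8% met one of the (+) replicates. Of (+) replicate 1, 19.8% and 30.8% met a peak of the ΔRRM replicates and 36.6% one of its own replicate. Of (+) replicate 2, 23.7% and 35.6% met a peak of the ΔRRM replicates and 49.6% one of its own replicate. Peaks of both ΔRRM lists met the list of (+) replicate 1, the longest of the 4, most often, and more often than that of their own replicate. Merged across the 4 lists, the peaks formed 57020 regions, of which 3600, or 6.31%, were listed in every library. These common regions carry the comparisons of height that follow, with the longest listed peak of a library standing for it in a region.

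Enriched peaks were mostly listed again, with a listed peak in any other of the 4 libraries at 84.3% to 98.3% of them. Whether they were enriched again differed by direction. Of the 1767 enriched peaks of ΔRRM replicate 1, 47.03% were enriched in ΔRRM replicate 2, and 22.2% and 24.2% in the (+) replicates. Of the 1146 enriched peaks of ΔRRM replicate 2, 73.9% were enriched in ΔRRM replicate 1, and 28.3% and 29.4% in the (+) replicates. All 4 shares in (+) libraries lay under both shares in the ΔRRM replicate. Of the 640 enriched peaks of (+) replicate 1, 66.9% and 54.1% were enriched in the ΔRRM replicates and 63.9% in (+) replicate 2. Of the 651 enriched peaks of (+) replicate 2, 74.8% and 58.2% were enriched in the ΔRRM replicates and 66.1% in (+) replicate 1. For peaks of (+), the shares in the form without the RRM lay on both sides of the share in the replicate. Averaged over libraries, ΔRRM peaks were enriched in their replicate in 60.5 ± 19.01% and in the other form in 26.0 ± 3.40% of cases (SD over 2 and 4 shares). The same means for (+) peaks were 65.0 ± 1.52% in the replicate and 63.5 ± 9.24% in the other form. The number of enriched peaks in the library searched moved with these shares, and its part in them was not tested. In the no-transgene list, 11.4% and 12.3% of the ΔRRM peaks were enriched, against 40.5% and 33.3% of the (+) peaks. As counts these were 202 and 141 ΔRRM peaks, against 259 and 217 (+) peaks. More ΔRRM peaks were enriched to begin with, and the part of this in the shares was not tested.

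**Figure D1:**
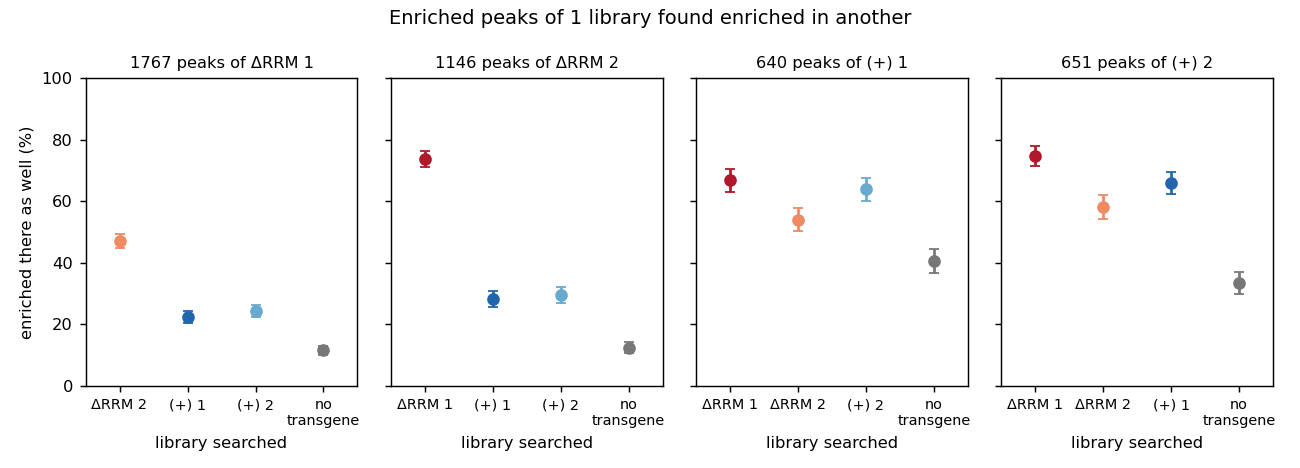
Share of the enriched peaks of 1 library (title of each panel) that overlap an enriched peak of another library (horizontal axis), in percent, with 95% Wilson intervals that cover counting error only. Peaks of (+) were enriched in ΔRRM libraries in 54.1% to 74.8% of cases, and peaks of ΔRRM in (+) libraries in 22.2% to 29.4%.

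A call at a fixed threshold depends on where a library's values lie. Over the 3600 common regions the median deposited log2 was 2.10 and 1.14 in the ΔRRM libraries, against 0.23 and 0.30 in the (+) libraries. The middle 50% of the regions spanned 1.19 to 3.10 and 0.50 to 1.88 for ΔRRM, against −0.40 to 1.04 and −0.49 to 1.299 for (+). The difference of the means of these medians was 1.35, with p = 0.333 in the exact two-sided permutation test over libraries. A higher enrichment of every region and a lower depth of the CLIP libraries cannot be told apart in this difference. Heights are therefore also given as the log2 above the library's own median over the common regions, called the relative log2. It shows how far a region stands from that median and no overall gain or loss.

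On the relative scale, regions enriched in a (+) library were lower in ΔRRM than in the other (+) library. These regions are not particular to the intact protein, since the enriched (+) peaks were enriched in C130Y at 63.0% to 76.0% as well as in ΔRRM and without a transgene at the shares above. The 362 common regions enriched in (+) replicate 1 had median relative log2 values of 0.85 and 0.64 in the ΔRRM libraries, against 1.89 in (+) replicate 2, a library that played no part in choosing them. (+) replicate 2 was above both ΔRRM libraries at 267 of these regions, or 73.8%, against 37.3% of all common regions. The 386 regions enriched in (+) replicate 2 had 0.90 and 0.64 in the ΔRRM libraries, against 1.64 in (+) replicate 1. There (+) replicate 1 was above both ΔRRM libraries at 270, or 69.9%, against 39.6% of all common regions. Both ΔRRM libraries still placed these regions above their own medians.

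The reverse choice gave no gap of that size. The 1239 regions enriched in ΔRRM replicate 1 had a median relative log2 of 0.42 in ΔRRM replicate 2, against 0.47 and 0.64 in the (+) libraries. ΔRRM replicate 2 was above both (+) libraries at 382 of them, or 30.8%, beside 32.9% of all common regions. The 764 regions enriched in ΔRRM replicate 2 had 0.97 in ΔRRM replicate 1, against 0.78 and 0.95 in the (+) libraries. ΔRRM replicate 1 was above both (+) libraries at 272 of them, or 35.6%, beside 32.4% of all. With the 200 highest enriched regions of each library, so that lists were equally long, the replicate was above both libraries of the other form at 27.5% and 36.5% for ΔRRM, against 77.0% and 70.5% for (+). Without regions enriched in the no-transgene library, the shares over all enriched regions were 34.0% and 39.7% for ΔRRM, against 70.9% and 58.8% for (+). Without regions that the no-transgene library listed at all, they were 37.4% and 44.9% for ΔRRM, against 63.7% and 53.4% for (+). For these 2 limits, the share over all common regions under the same limit was not taken. The shares therefore have no background of their own. Without regions listed in the no-transgene library, regions of ΔRRM stood highest in the ΔRRM replicate as well. Those of ΔRRM replicate 1 had 0.64 in ΔRRM replicate 2, against 0.41 and 0.58 in (+), and those of ΔRRM replicate 2 had 1.10 in ΔRRM replicate 1, against 0.74 and 0.88 in (+). On the deposited scale the order was different. There the replicate minus the other form was 1.34 for regions of ΔRRM and −0.34 for regions of (+), averaged over the libraries. The gap at (+) regions therefore held for the relative log2 and not for the deposited log2. The libraries also differed in the spread of their values, which subtracting a median leaves in place.

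**Figure D2:**
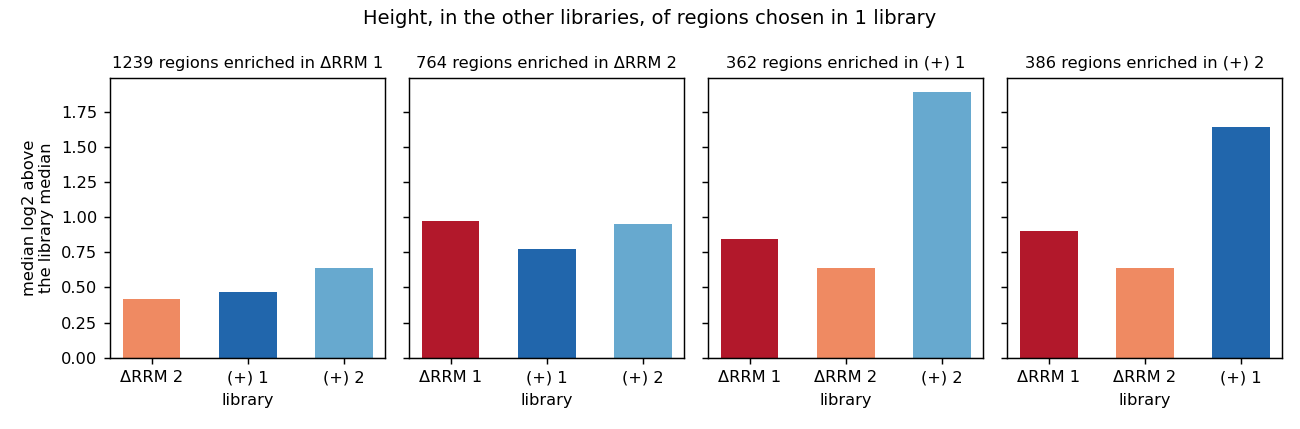
Median relative log2 (log2 above the median of the library over the common regions), in each library that was not used for the choice, of the common regions enriched in 1 library (title of each panel). Regions chosen in (+) stood at 1.64 and 1.89 in the other (+) library and at 0.64 to 0.90 in the ΔRRM libraries.

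Region by region, the 2 scales call different numbers. A region was called lower or higher in ΔRRM when both ΔRRM values lay on 1 side of both (+) values and the means differed by at least 1. With the deposited values, 51 common regions (1.42%) were lower and 2053 (57%) higher in ΔRRM. With the library medians subtracted, 522 (14.5%) were lower and 308 (8.56%) higher in ΔRRM. At a relative difference of at least 2, 133 (3.69%) were lower and 24 (0.667%) higher in ΔRRM, so the larger relative differences were mostly on the lower side. The deposited counts moved with single libraries, where fewer values had to lie apart. Lower regions numbered 277 without ΔRRM replicate 1, 33 without ΔRRM replicate 2 and 128 without (+) replicate 1, and higher ones 3373 without ΔRRM replicate 2. The enriched sets used the same values as these calls, and their counts are a description. The minimum of 1 for enrichment lay at a relative log2 of −1.10 and −0.14 in the ΔRRM libraries, against 0.77 and 0.70 in the (+) libraries, so a set enriched in (+) leans to the lower side in ΔRRM by its choice. Of the 634 common regions enriched in both ΔRRM libraries, 107 were lower and 79 higher in ΔRRM on the relative scale, with a median difference of 0.09, so the counts and the median lean to different sides. Of the 244 enriched in both (+) libraries, 167 were lower and 2 higher, with a median difference of −1.61, and 92 of them (37.7%) were enriched in the no-transgene library. Of the 169 enriched in all 4 libraries, 96 were lower and 2 higher on the relative scale, and 13 lower and 23 higher with the deposited values, where the median difference was 0.09. The no-transgene library was enriched at 43.8% of these 169 regions.

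**Figure D3:**
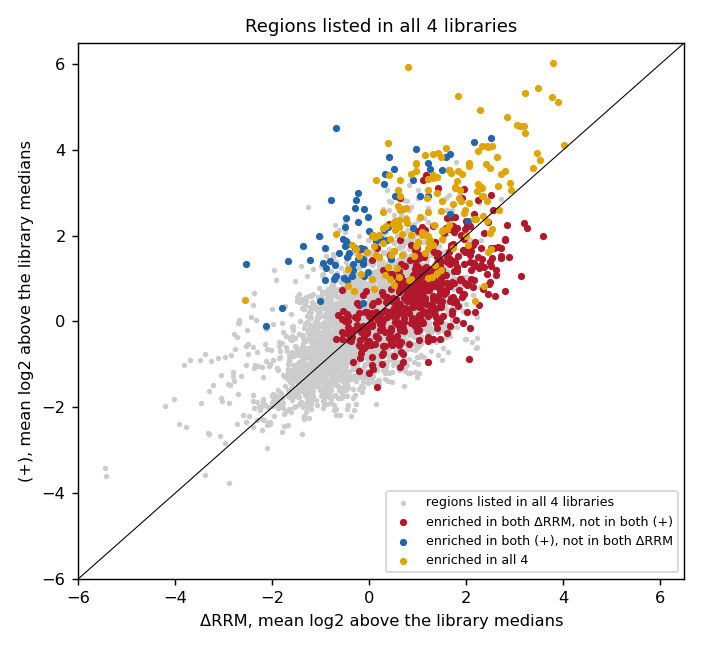
Mean relative log2 of the 2 ΔRRM libraries (horizontal) and of the 2 (+) libraries (vertical) for the 3600 common regions, with the line of equal values. Regions enriched in all 4 libraries (yellow) lie mostly above the line, with 96 of 169 (56.8%) called lower in ΔRRM, beside 14.5% of all common regions. The enrichment minimum lies higher on the relative scale in (+), so the choice of this set leans to that side. With the deposited values, 13 of the 169 were lower and 23 higher. Regions enriched in both ΔRRM and not in both (+) libraries (red) lie on both sides of the line.

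Replicates resembled each other more than libraries of different forms did, but not by much. Across the common regions, which are not independent, the deposited log2 had Pearson's r = 0.66 between the ΔRRM replicates and 0.69 between the (+) replicates. Between forms it was 0.53 to 0.59, and libraries of 1 form were also nearer to each other in CLIP depth. The median absolute difference in relative log2 was 0.628 between the ΔRRM replicates and 0.647 between the (+) replicates, against 0.696 to 0.809 between forms. On the relative scale, the typical region therefore differed between forms by little more than between replicates. The difference of 1.35 between the deposited medians of the forms is left out of this.

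The regions that were relatively lower in ΔRRM were more often enriched in the strains outside the comparison than all common regions were. The (+) values took part in choosing them. Median relative log2 in (+) was 1.19 and 1.39 at the 522 lower regions, against −0.47 and −0.58 at the 308 higher ones. The shares below were not compared at equal (+) height, so the part of this choice in them was not tested. Of the 522 lower regions, 48.1% and 44.6% were enriched in the C130Y libraries, beside 16.3% and 14.7% of all common regions. Their median in the C130Y libraries lay 0.90 and 0.82 above the C130Y libraries' own medians, and in the no-transgene library 1.24 above its own. Of the same 522 regions, 28.0% were enriched in the no-transgene library (95% Wilson interval 24.3% to 32.0%), beside 7.03% of all common regions. Of the 308 regions higher in ΔRRM, 6.17% were enriched in each C130Y library and 0.649% in the no-transgene library. Their medians in the C130Y libraries were 0.01 and 0.06 above the median of all. Regions enriched in the no-transgene library were thus much more frequent on the side where the intact protein was higher. They carried much of the excess of lower over higher regions. That library had fewer reads than any other, with 0.192 M CLIP and 0.429 M input reads, and listed 7170 peaks. A region not enriched or not listed there is therefore not shown to be free of background. The part of depth in these shares was not tested. The 253 common regions enriched in the no-transgene library held 146 lower and 2 higher ones. The 3347 others held 376 lower (11.2%) and 306 higher (9.14%) ones. The 152 regions enriched in both (+) libraries and not in the no-transgene library, a set chosen on high (+) values, held 88 lower and 1 higher on the relative scale. With the deposited values they held 23 lower and 20 higher, with a median difference of −0.14. The median region was 60 nt long on the lower side and 78 nt on the higher side, beside 71 nt for all.

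Both ΔRRM values lay under both (+) values at 54 of the 244 regions enriched in both (+) libraries. Over all 3600 common regions this held at 96. The 10 regions named as lower in ΔRRM had the lowest difference among those 54. The first lay on the plus strand of chromosome II from 7001617 to 7001665, where ΔRRM had a log2 of 1.32 and 0.55 on 14 and 9 CLIP reads, against 5.44 and 4.11 on 65 and 63 reads in (+). The C130Y libraries had 1.00 and 2.18 there, nearer to ΔRRM than to (+). The no-transgene library had 2.74 on 3 reads. The second, on the plus strand of chromosome V from 17119977 to 17120044, was one of the highest (+) regions, with 2.42 and 2.43 on 73 and 132 reads in ΔRRM, against 5.86 and 6.54 on at least 2856 and 2498 reads in (+). Its −log10 p was at the cap of 400 in both (+) lists, and read numbers at the cap are lower bounds. It had 5.52 and 5.11 in C130Y. Without a transgene it was enriched too, with 3.38 on 56 reads, above both ΔRRM values. The C130Y and (+) libraries also had more CLIP reads than the ΔRRM libraries, and the part of depth was not tested.

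The third, on the plus strand of chromosome IV from 15235403 to 15235431, was under input in ΔRRM, with −0.16 and −1.68, against 1.50 and 1.73 in (+). On chromosome X from 6286331 to 6286359 (plus strand), ΔRRM had 2.76 and 1.25, against 3.79 and 5.08 in (+), and no peak was listed without a transgene. On chromosome X from 8945098 to 8945128 (minus strand), ΔRRM had 1.34 and 0.31, against 2.59 and 3.62 in (+). The groups were apart at these 3, although the ΔRRM replicates differed from each other by more than 1 at each. On chromosome I from 9320200 to 9320249 (plus strand), ΔRRM had 3.83 and 3.06 on 15 and 17 reads, against 5.59 and 5.44 on 72 and 53 reads in (+). This region was enriched in all 4 libraries, with a difference of −2.07. On chromosome X from 10821281 to 10821340 (minus strand), ΔRRM had 1.93 and 2.14 on 4 and 9 reads, against 4.00 and 4.17 on 24 and 22 reads in (+).

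The last 3 of these regions were smaller in their difference. On chromosome I from 10185098 to 10185131 (minus strand), ΔRRM had 1.51 and 1.25, against 4.12 and 2.39 in (+), and neither C130Y nor the no-transgene library listed a peak. On chromosome II from 6898200 to 6898224 (plus strand), ΔRRM had 2.39 and 1.12, against 3.68 and 3.43 in (+). Its read numbers were at least 1294 and 5811 CLIP reads in ΔRRM, against at least 4856 and 3276 in (+). All 4 values were at the cap, so these numbers are lower bounds and give no order. On chromosome I from 13161103 to 13161131 (plus strand), ΔRRM had 2.19 and 1.69, against 3.12 and 4.30 in (+). The 10 deposited differences ran from −3.84 to −1.77, and with library medians subtracted from −5.19 to −3.12. The choice required that the forms did not overlap on the deposited scale. This fixed the same on the relative scale, since both ΔRRM medians lay above both (+) medians.

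Both ΔRRM values lay above both (+) values at 433 of the 634 regions enriched in both ΔRRM libraries. Over all 3600 common regions this held at 2350, a similar share. The 10 regions named as higher in ΔRRM had the highest difference among those 433. Their read numbers were low, between 8 and 29 CLIP reads on 1 to 6 input reads in the ΔRRM libraries. The first lay on the minus strand of chromosome X from 14170972 to 14171035, where ΔRRM had 3.97 and 3.36 on 11 and 14 reads, against −0.80 and −0.40 in (+). It was under input in both (+) libraries and not listed without a transgene. On chromosome V from 7729452 to 7729581 (plus strand), ΔRRM had 4.37 and 3.01 on 29 and 22 reads, against −0.41 and 0.61 in (+). On chromosome IV from 4697166 to 4697277 (minus strand), ΔRRM had 3.10 and 2.55, against −1.08 and −0.29 in (+). All 3 were low in both (+) libraries and at a log2 above 2.5 in both ΔRRM libraries.

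On chromosome III from 13073794 to 13073913 (plus strand), ΔRRM had 4.97 and 3.88 on 11 and 10 reads, each on 1 input read, against 0.23 and 1.71 in (+). On chromosome IV from 9763236 to 9763288 (plus strand), ΔRRM had 4.60 and 4.88, against 1.78 and 0.88 in (+). On chromosome X from 3092233 to 3092425 (plus strand), ΔRRM had 3.28 and 5.14, against 0.51 and 1.19 in (+). The last of these was the longest of the 10, at 193 nt, and had the widest gap between ΔRRM replicates. The other 4, on chromosomes I (minus strand, 9420932 to 9421006), IV (plus, 11926532 to 11926620), III (minus, 9516926 to 9517072) and V (plus, 11602189 to 11602259), had ΔRRM values of 2.48 to 4.51, against −0.58 to 1.04 in (+). No region of the 10 was enriched in the no-transgene library, which listed a peak at 2 of them. The C130Y values where listed ran from −0.38 to 2.83. The 10 deposited differences were 3.23 to 4.27, and 1.88 to 2.91 with library medians subtracted, and the groups stayed apart on both scales.

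**Figure D4:**
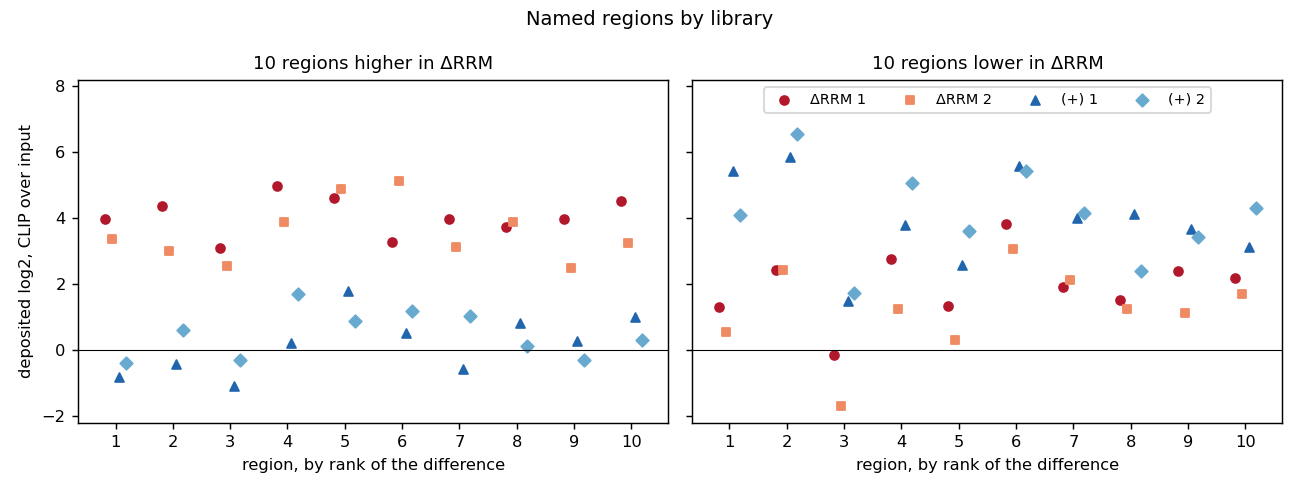
Deposited log2 of CLIP over input in each library at the 10 regions named as higher in ΔRRM (left) and the 10 named as lower (right), in the order of the text. Both ΔRRM points lie on 1 side of both (+) points at every region, which the choice of these regions required.

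The strongest shared regions were high with and without the RRM, and some of them were enriched without a transgene too. Of the 169 regions enriched in all 4 libraries, the one with the highest minimum lay on the minus strand of chromosome III from 4035150 to 4035169, with 5.32 and 5.51 in ΔRRM, against 5.31 and 7.28 in (+). On the minus strand of chromosome II from 14641240 to 14641298, ΔRRM had 5.56 and 5.21, against 5.81 and 5.21 in (+). Nearby on the same strand, from 14635737 to 14635775, ΔRRM had 5.31 and 4.30, against 4.41 and 5.24 in (+). Groups overlapped at both regions of chromosome II, and the no-transgene library was enriched at both, with 2.92 and 2.25.

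Others of this set lay on chromosome I or in the mitochondrial genome. On chromosome I from 15065226 to 15065260 (plus strand), ΔRRM had 5.79 and 5.25, against 5.81 and 4.94 in (+), and the no-transgene library listed no peak. On chromosome I from 3771 to 3809 (minus strand), ΔRRM had 5.33 and 4.33, against 4.07 and 5.24 in (+), with an enriched 2.17 without a transgene. In the mitochondrial genome, on the plus strand from 1620 to 1646, ΔRRM had 5.85 and 4.35, against 5.34 and 6.08 in (+). That region was enriched without a transgene as well, at 3.05 on 52 reads. All 3 were at the cap of −log10 p in every one of the 4 libraries, with at least 639 CLIP reads each. The other 4 regions, on chromosomes IV (minus, 2639801 to 2639870), X (plus, 4410664 to 4410703), I (plus, 9883721 to 9883761) and V (plus, 14689562 to 14689610), had 3.81 to 5.37 in ΔRRM, against 3.96 to 5.99 in (+). Of these, the region of chromosome V was enriched without a transgene, at 3.33 on 9 reads. The mean difference was between −1.29 and 0.18 over the 10 regions, with the largest gap at 9883721 to 9883761 on chromosome I, where ΔRRM had 3.88 and 3.92, against 5.99 and 4.39 in (+).

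Regions seen with 1 form alone were few once listing, rather than enrichment, was asked for. Of regions enriched in both ΔRRM libraries, 23 had no listed peak in either (+) library. Of regions enriched in both (+) libraries, 12 had none in either ΔRRM library, whose lists are shorter. By the lower of its 2 values, the highest of the 23 lay on the minus strand of chromosome V from 4434896 to 4434933, with 3.42 and 3.78 on 15 and 28 reads. Another lay nearby on the same strand, from 4431722 to 4431757, with 3.68 and 2.95, and neither was listed in C130Y or without a transgene. The next 3, at 2314755 to 2314791 on chromosome IV, 19201017 to 19201078 on V and 9617504 to 9617552 on II, all on the minus strand, had 3.06 to 4.45 on 12 to 24 reads. C130Y replicate 1 was enriched at the region of IV, with 2.58 on 12 reads, and listed that of II at 2.16.

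By the same measure, the highest of the 12 regions of (+) was also high without a tag. It lay on the plus strand of chromosome V from 5226671 to 5226687, with 5.56 and 3.94 on 212 and 75 reads in (+) and 5.16 on 16 reads in the no-transgene library. On chromosome I from 15065612 to 15065648 (plus strand), (+) had 3.31 and 3.66 on 207 and 200 reads, and the no-transgene library 2.36. Both were enriched in worms without the tagged protein. C130Y had 4.90 and 2.41 at the region of V, and 3.97 and 5.19 at that of I. At 10372 to 10395 on the plus strand of the mitochondrial genome, (+) had 3.85 and 3.13, with no peak without a transgene. Both C130Y libraries were enriched at that region, with 3.90 and 2.86. The 2 others, on the minus strand at 4677990 to 4678074 on chromosome X and 9246595 to 9246683 on II, had 3.00 to 3.17 on 20 to 37 reads in (+), and C130Y listed a peak at both.

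On average, peaks of the 2 forms lay in nearly the same place within the common regions. Matching by overlap had already brought these peaks together, and opposite shifts at single regions cancel in such a mean. Within common regions, the midpoint of the peak, measured along the strand from the mean of the 4 libraries, was at 0.547 and 0.372 nt in ΔRRM, against −0.395 and −0.524 nt in (+), where positive values are downstream. The difference was 0.919 nt, with p = 0.333 in the exact two-sided permutation test over 4 libraries. Where regions were enriched in all 4 libraries, ΔRRM peaks were longer, with medians of 40 and 42 nt, against 39 and 36 nt for (+). Their 5′ ends differed by −2.26 nt (further upstream) and their 3′ ends by 1.97 nt (further downstream), each with p = 0.333 in the same exact test. In the 634 regions enriched in both ΔRRM libraries, peaks had a median of 52 and 54 nt in ΔRRM, against 47.5 and 41 nt in (+). Over all enriched peaks, which differ in place between libraries, the medians were 48 and 49 nt in ΔRRM, against 31 and 28 nt in (+). They were 33 and 33.5 nt in C130Y and 52 nt in the no-transgene list. The libraries with the longer enriched peaks were those with fewer CLIP reads, and the part of depth was not tested.

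Listed peaks were spread over the 7 chromosomes in much the same shares, with chromosome X as the widest difference. X held 10.4% and 9.87% of the listed ΔRRM peaks, against 11.9% and 11.9% of the listed (+) peaks, or 10.1 ± 0.349% against 11.9 ± 0.0489% (SD, n = 2 libraries each). The exact two-sided permutation test gave p = 0.333 and 0.583 after Benjamini-Hochberg adjustment over the 7 chromosomes. The no-transgene list had 10.0% on X, near the ΔRRM share. Among enriched peaks the direction turned, with 12.5 ± 0.122% on X in ΔRRM and 11.8 ± 1.50% in (+), while the no-transgene library had 3.41%. Chromosome IV held 18.7% and 18.9% of the listed ΔRRM peaks, against 17.6% and 17.8% for (+). Enriched peaks were less frequent on chromosome I in ΔRRM (20.4% and 20.2%, against 22.5% and 22.6%) and more frequent on III (16.3% and 17.02%, against 14.1% and 14.7%). In both cases the groups did not overlap, but every interval of 1 form overlapped those of the other.

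**Figure D5:**
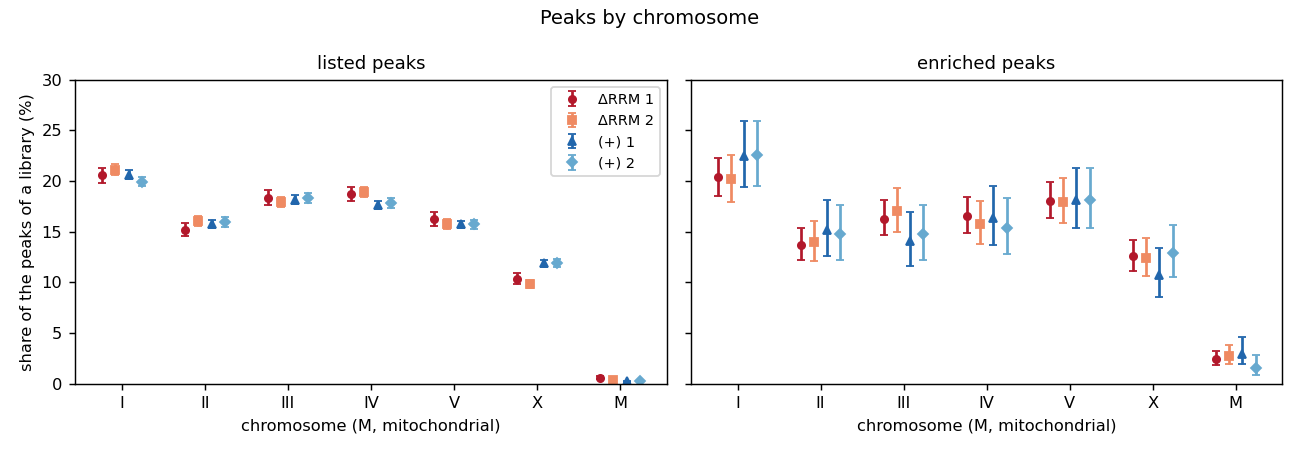
Share of the listed peaks (left) and of the enriched peaks (right) of each library on each chromosome, in percent, with 95% Wilson intervals. Both ΔRRM shares of listed peaks on X (10.4% and 9.87%) lie under both (+) shares (11.9% each), and the order is not kept among enriched peaks.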

How the data were processed

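The authors deposited 1 peak list per CLIP library, called per library, with a log2 of CLIP over input and a −log10 p-value for each peak. The submitters' processing notes name SAMtools 1.4.1, STAR 2.4.0i, cutadapt 1.9.1 and the build ce10. Which program called the peaks is not stated in the labels. Read numbers were recovered from both values, as whole reads over library totals with an input of at least 1, with Fisher's exact test where reads or expected reads were below 5 and chi-square with Yates' correction elsewhere. These tests matched 99.9% and 99.3% of the p-values in ΔRRM and 96.9% and 96.8% in (+), within 0.001 or 1%, and 95.3%, 95.9%, 90.9% and 90.6% of those of enriched peaks. Peaks with a −log10 p of 0, which gave no reads, were left out of this, 313 and 2387 in ΔRRM and 18441 and 13771 in (+). Read recovery and region calls were tested on simulated data. Wilson intervals cover counting error only, and reads are not independent molecules. Regions were named by fixed rules of enrichment, non-overlap and difference. The members and lists were chosen with earlier results of these data known. Python 3.11.15, pandas 2.3.3 and scipy 1.17.1 were used. Genomic features and gene lists were not analysed here.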

Additional observations from a re-analysis of the deposited data

How the results depend on the processing

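Of 157 alternative values, 12 reversed in direction and 44 moved beyond the replicate spread or, for counts, beyond 1.5 times. The other 101 kept their direction, though not always their size. At a log2 of at least 3, ΔRRM peaks were enriched in the replicate in 35.9% and in the other form in 16.5% of cases, and (+) peaks in 60.7% and 45.9%. With a −log10 p minimum of 5, the share of ΔRRM peaks in the other form was 33.0% and that of (+) peaks in the replicate 69.7%. With a minimum of 1.3, ΔRRM peaks gave 41.4% in the replicate and 16.5% in the other form, and (+) peaks 51.7% in the replicate. Relative log2, chosen after seeing the data, turned the height of (+) peaks in the replicate minus the other form to 1.01 (1.19 for the 200 highest regions, 0.76 without regions enriched and 0.72 without regions listed in the no-transgene library). For ΔRRM peaks it gave −0.014 (0.055, 0.13 and 0.22 under the same limits). The causes of these shifts were not tested.

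Regions enriched in ΔRRM alone, in (+) alone and in all 4 libraries numbered 412, 44 and 169, and 85, 24 and 31 at a log2 of at least 3. With the minimum at 1.3 they numbered 929, 82 and 304. With the minimum at 5, ΔRRM alone had 220 and (+) alone 26, and 254 were shared when 50% of the shorter peak had to overlap. Leaving out 1 library, ΔRRM alone ranged from 464 to 1194 and (+) alone from 53 to 156. Regions called lower in ΔRRM were 522 and higher 308 with library medians subtracted, and 133 and 24 at a relative difference of at least 2. Without regions enriched in the no-transgene library they were 376 and 306, both settings also chosen after seeing the data. On the deposited scale they were 8 and 719 at a difference of at least 2, 22 and 416 with a log2 of at least 3 in 1 library, and 32 and 451 with a −log10 p minimum of 5. Lower regions were 96 at any difference and 16 with at most 1 peak per library. Without 1 library in turn, lower regions ranged from 33 to 277 and higher ones from 2479 to 3373.

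The share of chromosome X differed by 0.635 percentage points, in the opposite direction, among enriched peaks. There chromosomes I, III and V differed by −2.28, 2.25 and −0.111. Over the libraries left out, chromosome II ran from −0.656 to 0.162 and III from −0.290 to 0.123. Median peak length turned to −2 nt without (+) replicate 2, and ran from −2 to 3 nt over the libraries left out, and was 19 nt for enriched peaks only. With replicate number as a block, values were the same and the smallest exact p is 0.5. Deviations of same-numbered libraries correlated at −0.119, and the labels do not say that numbers pair libraries. Peaks of 3 CLIP reads on 1 input read made up 11.1% to 14.9% of the 4 lists, and 2 libraries per form cannot pass any threshold.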
